A study of Saccharomyces cerevisiae with 21 samples.

Results

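The genes described here are 10 regulators of the glucose response of the yeast Saccharomyces cerevisiae. They are the glucose-signalling regulators STD1, MTH1 and RGT1, the repressors MIG1, MIG2 and MIG3, and the activators HAP4, CAT8, SIP4 and ADR1. They were chosen by name from the 5656 genes that had a probe set of their own on the Affymetrix YG-S98 array, and each of the 10 was read by 1 probe set. All 10 passed the filter on low signals, which removed genes at the floor of detection on every array.

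The arrays measured total RNA of anaerobic chemostat cultures, which are fed continuously so that the dilution rate sets the growth rate and a single nutrient limits growth. There were 7 groups of 3 cultures: the msn2 msn4 double mutant limited for nitrogen (N) and for carbon (C), and the wild type limited for zinc (Zn), nitrogen, phosphorus (P), sulfur (S) and carbon. All were labelled with a dilution rate of 0.10 per hour and pH 5.0. Residual glucose was targeted to 17 g per litre in every group except the C-limited ones, where glucose itself was limiting (25 g per litre in the wild-type feed), so the Zn, N, P and S limitations are called glucose-excess here. Wild type was the prototrophic MATa strain CEN.PK113-7D (MAL2-8c SUC2), although the labels of the N-limited wild-type arrays name no strain. The mutant was built in the same background, with ura3, a loxP scar in msn2, a loxP-kanMX-loxP insertion in msn4 and the URA3 plasmid p426, so the loss of the stress-response activators Msn2 and Msn4 cannot be told apart from these other changes. Independent cultures are stated in the labels of 6 groups, and for the C-limited wild type p-values may measure technical spread only. They give no clone number for the mutant.

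In textbook accounts, extracellular glucose is sensed by Snf3 and Rgt2, which leads to breakdown of Mth1 and Std1, the corepressors with which the DNA-binding protein Rgt1 holds hexose transporter genes off. Inside the cell, Mig1 and its relatives Mig2 and Mig3 repress genes for other sugars while glucose is plentiful, and when glucose is scarce the Snf1 kinase inactivates Mig1 and turns on Cat8, Sip4 and Adr1, the activators of gluconeogenesis, the glyoxylate cycle and fatty acid oxidation. Hap4 is the glucose-repressed activating subunit of the Hap2/3/4/5 complex, which drives genes of respiration. As background, MIG2 and STD1 are known as genes that Rgt1 represses, and MTH1 as a gene that Mig1 and Mig2 repress.

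The deposited signals, which are linear array intensities, had trimmed means between 398 and 466 for wild-type Zn limitation, between 247 and 311 for wild-type N limitation, between 235 and 251 for wild-type C limitation and between 150.1 and 150.2 for the other 12 arrays. The label texts fall into the same 4 sets, so for every wild-type contrast other than P against S the set and the limitation cannot be told apart. Comparisons of the mutant with wild type, under C or N limitation, also cross sets. For these, and for the difference of the mutant effects, the set and the strain cannot be told apart. Each array was therefore scaled to a 2% trimmed mean of 150.2 and values under 12 were raised to 12, the floor, where 25.1% to 33.6% of probe sets lay. MSN2 gave 12.0 to 13.7 on the mutant and 58.0 to 147 on the wild-type arrays, URA3 gave 1087 to 2473 and 30.5 to 82.4, and MSN4 gave 34.5 to 55.6 and 47.3 to 153, which overlap. Of the a-cell markers STE2 lay between 377 and 797 over all arrays, MFA1 between 1787 and 10665, MFA2 between 2131 and 6501.5, BAR1 between 286 and 953 and STE6 between 88.1 and 385. Of the alpha-cell markers STE3 lay between 15.0 and 39.5, SAG1 between 22.5 and 130 and MF(ALPHA)1 between 25.8 and 402, the last value in Zn limitation. The labels of the N-limited wild-type arrays give anaerobic growth in the title but mention glucose limitation and air in the growth text. Of 6 genes of anaerobic growth, DAN1 gave 2483 to 3055 on these arrays, within the 1921 to 5136 of all arrays. TIR1 and HEM13 also lay within the range of the other arrays. ANB1 gave 1927, 1560 and 1797, below every other array. AAC3 gave 120, 84.0 and 131, below all others except an S-limited array at 51.4. COX5B gave 139, 155 and 105, which include its highest value. Whether air reached these cultures was not tested. The ratio of 3′ to 5′ actin probe sets was 1.18 to 1.67 on the other arrays and 1.05 to 1.20 on the C-limited wild-type arrays, and its part in the differences was not tested. One array, replicate 1 of the C-limited mutant, stood apart from its 2 group mates for several members. Counts of called members in comparisons that use the C-limited mutant are given with and without it. It also enters the fit of the N-limited mutant against wild type, where it affects the spread, and those values include it unless stated. With bulk RNA, fewer cells that express a gene and less of its RNA per cell cannot be told apart.

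A member was called when its group means differed at a Benjamini-Hochberg adjusted p under 0.05 in limma and by at least 2-fold, a log2 change of 1. In wild type 3 of the 10 members were called in Zn against C limitation, where 14.9% of the 5450 genes tested were called. In N against C limitation 4 were called, with 10.7% of all genes. In P against C limitation 5 were called, with 12.1% of all genes, and in S against C limitation 3 were called, with 11.2% of all genes. These 4 comparisons share the 3 C-limited arrays. STD1 was higher in each of them, and no member other than STD1, MTH1, MIG2, MIG3, HAP4 and ADR1 was called in any.

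**Figure D1:**
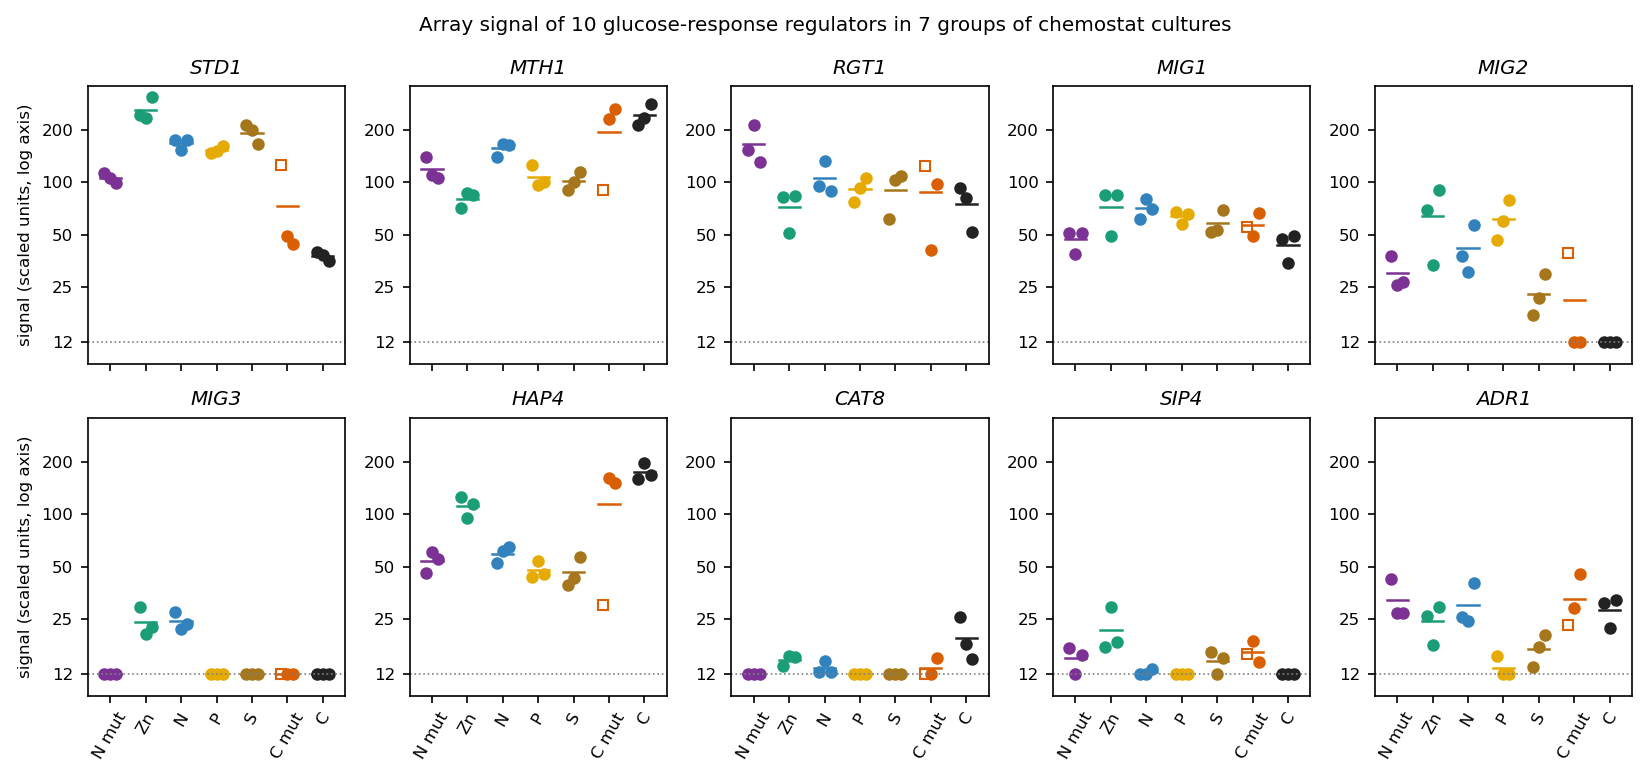
Signal of each regulator on every array (vertical log axis, scaled array units), with the 7 groups along the horizontal axis, 3 points per group and a bar at the group mean. The dotted line is the floor of 12 and the open square is replicate 1 of the C-limited mutant (C mut). STD1 lies at 147 to 311 in the glucose-excess wild type (Zn, N, P, S) and at 35.2 to 39.5 in C limitation, while HAP4 and MTH1 are at their highest in C limitation.

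STD1 (YOR047C) encodes a corepressor that works with Rgt1. Its signals were 243, 235 and 311 under Zn limitation, 177, 155 and 176 under N limitation, 147, 152 and 162 under P limitation and 214, 201 and 166 under S limitation, against 39.5, 38.1 and 35.2 under C limitation. Every glucose-excess array was thus well above every C-limited array, and the groups did not overlap. The log2 change against C limitation was 2.80 ± 0.15 (SE of the fit, n = 3 per group) in Zn limitation, a 6.95-fold higher signal (adjusted p = 6.79e-09). It was 2.17 ± 0.15 in N, 2.03 ± 0.15 in P and 2.36 ± 0.15 in S limitation, which are 4.50-fold, 4.09-fold and 5.13-fold (adjusted p = 1.72e-07, 2.84e-07 and 5.41e-08 in limma). Among the glucose-excess groups the order was Zn, S, N and P. Zn limitation exceeded N by 0.63 ± 0.15, P by 0.77 ± 0.15 and S by 0.44 ± 0.15 on the log2 scale (adjusted p = 0.0094, 0.0014 and 0.033), each under 2-fold. N, P and S limitation were not told apart by the test, and P minus S was -0.33 (adjusted p = 0.20, 95% interval -0.65 to -0.0046).

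MTH1 (YDR277C), the paralogue of STD1 and the other Rgt1 corepressor, moved the other way. It gave 70.7, 86.8 and 84.2 under Zn limitation, 139, 167 and 165 under N limitation, 127, 96.6 and 101 under P limitation and 90.1, 101 and 115 under S limitation, against 214, 235 and 284 under C limitation. The C-limited arrays were the highest of the wild type and no glucose-excess array reached them. The log2 change was -1.60 ± 0.17 in Zn limitation (3.02-fold lower, adjusted p = 5.90e-06), -1.18 ± 0.17 in P limitation (2.27-fold lower, adjusted p = 0.00014) and -1.26 ± 0.17 in S limitation (2.39-fold lower, adjusted p = 8.16e-05). In N limitation it was -0.63 ± 0.17, a 1.55-fold lower signal that was not called although its adjusted p was 0.013. N limitation lay above Zn limitation, with a Zn minus N difference of -0.96 ± 0.17 (adjusted p = 0.00095), and above P and S limitation by 0.55 ± 0.17 and 0.63 ± 0.17 (adjusted p = 0.020 and 0.013), all below 2-fold. The Zn against N difference passed 2-fold with quantile normalization (-1.03), without replicate 2 of Zn limitation (-1.02) and without replicate 1 of N limitation (-1.05). With arrays scaled to a common median the P against C change of MTH1 was -0.97 and no longer called.

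STD1 was thus lowest and MTH1 highest in C limitation, and STD1 highest and MTH1 lowest in Zn limitation, while N limitation had a higher mean than P limitation in both genes. Over the 15 wild-type arrays the Pearson correlation of their log2 signals was -0.885, a description over arrays that share groups of 3. It was the most negative of the 45 pairs of members. RGT1 (YKL038W), whose protein binds the transporter promoters, had no called difference among the limitations. Its signals were 82.6, 51.1 and 82.9 under Zn, 94.8, 133 and 89.7 under N, 76.9, 92.8 and 106 under P and 61.5, 103 and 109 under S limitation, against 93.4, 81.3 and 51.8 under C limitation. Each glucose-excess group overlapped with C limitation. The interval of the N minus C difference ran from -0.09 to 1.11 on the log2 scale and that of Zn minus C from -0.66 to 0.55, so a change of about 2-fold in N limitation is not shown to be absent.

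MIG1 (YGL035C), the main DNA-binding repressor of glucose-repressed genes, differed by less than 2-fold in each comparison. It gave 84.1, 48.9 and 84.2 under Zn, 61.2, 80.4 and 70.5 under N, 67.6, 57.9 and 65.7 under P and 51.8, 53.4 and 69.0 under S limitation, against 47.2, 34.2 and 49.1 under C limitation. The N-, P- and S-limited arrays all lay above the C-limited ones, and 1 of the Zn-limited arrays fell among them. The log2 changes were 0.71 ± 0.22 in Zn and 0.71 ± 0.22 in N limitation (adjusted p = 0.025 and 0.029), 0.57 ± 0.22 in P and 0.42 ± 0.22 in S limitation (adjusted p = 0.069 and 0.18). None was called.

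MIG2 (YGL209W), a glucose-induced relative of MIG1 with shared targets, separated the groups more widely. Its signals were 69.5, 33.2 and 90.0 under Zn limitation, 37.8, 30.5 and 57.0 under N limitation, 46.6, 60.1 and 78.9 under P limitation and 17.2, 21.4 and 29.6 under S limitation, while all 3 C-limited arrays were at the floor of 12. Each glucose-excess array was above the floor, so no group overlapped with C limitation, but the spread within the Zn group was wide. Against C limitation MIG2 was at least 4.94-fold higher in Zn (adjusted p = 0.00013), at least 3.36-fold higher in N (adjusted p = 0.0019) and at least 5.04-fold higher in P limitation (adjusted p = 0.00016). In S limitation it was at least 1.85-fold higher and not called (adjusted p = 0.067). The S change was called with a common median (1.10), quantile normalization (1.09) and a floor of 6 (1.71). With a floor of 25 in place of 12 the N against C change was 0.69 and not called.

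MIG2 was lower in S limitation than in P and Zn limitation. P against S limitation, the 1 wild-type contrast whose arrays share a label set, called 4.70% of all genes and among the members MIG2 alone, with P above S by 1.45 ± 0.34 on the log2 scale (2.73-fold, adjusted p = 0.014). The 3 P-limited arrays all lay above the 3 S-limited ones. Without replicate 3 of P limitation the adjusted p was 0.064 and without replicate 1 of S limitation 0.069, so either array decides that call. Zn limitation exceeded S limitation by 1.42 ± 0.34 (2.67-fold, adjusted p = 0.0045). The N minus S difference was 0.86 and not called (adjusted p = 0.065), and was 1.07 and called without replicate 3 of S limitation. Zn, P and N limitation were not told apart for MIG2 (the N minus P difference was -1.08 and called with a common median and -1.01 with quantile normalization), with a Zn minus P difference of -0.03 (95% interval -0.75 to 0.69).

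MIG3 (YER028C), the third member of the Mig family, was detected above the floor in 2 groups. It gave 29.2, 20.3 and 22.5 under Zn limitation and 27.5, 21.7 and 23.4 under N limitation, and every P-, S- and C-limited wild-type array was at the floor of 12. Before the floor was applied those other arrays read 0.38 to 5.88, so the 6 Zn- and N-limited arrays stood clear of the rest. MIG3 was at least 2.00-fold higher in N than in C limitation, with a log2 change of 1.00 ± 0.15 (adjusted p = 0.00027), and by the same amount above P and S limitation. Zn against C limitation gave 0.98 ± 0.15 (adjusted p = 0.00017), just short of the 2-fold needed, and was called with a floor of 6 (1.98), with array weights (1.07), without replicate 2 of Zn limitation (1.10) and without replicate 3 (1.02). The N calls ended with a floor of 25 (log2 change 0.05), with a common median (0.81), with quantile normalization (0.75) and without replicate 1 of N limitation (0.91). The Zn- and N-limited arrays belong to label sets of their own, and the floor of 12 stands for a deposited signal of 31.8 to 37.2 in the Zn set and 19.7 to 24.9 in the N set. Markers of the other mating type, alpha cells, also differed between groups. In wild type the summed signal of MF(ALPHA)1, SAG1 and STE3 was 258 to 459 in Zn and 244 to 272 in N limitation. It was 75.2 to 105 in P, 71.4 to 104 in S and 107 to 136 in C limitation. In Zn and in N limitation 1 of the 3 was called higher than in C limitation. SAG1 went the other way in Zn limitation, at 32.6, 24.6 and 24.3 against 67.4, 41.2 and 38.7 under C limitation. In the mutant, where MIG3 was at the floor on every array, the sum was 210 to 298 under N and 210 to 241 under C limitation. None of the 3 markers was at the floor on any array, and their part in the MIG3 result was not tested.

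HAP4 (YKL109W), the activator of respiratory genes, was highest in C limitation. It gave 126, 95.2 and 114 under Zn limitation, 52.1, 61.1 and 64.5 under N limitation, 43.5, 53.8 and 45.4 under P limitation and 39.0, 42.9 and 56.9 under S limitation, against 160.4, 198 and 168 under C limitation. No glucose-excess array reached the C-limited ones, and the Zn-limited arrays formed a middle level above all N-, P- and S-limited arrays. The log2 change against C limitation was -1.57 ± 0.18 in N (2.96-fold lower, adjusted p = 2.60e-05), -1.88 ± 0.18 in P (3.69-fold lower, adjusted p = 2.72e-06) and -1.93 ± 0.18 in S limitation (3.82-fold lower, adjusted p = 2.41e-06). In Zn limitation it was -0.65 ± 0.18, 1.57-fold lower and not called (adjusted p = 0.011).

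The middle level of HAP4 was seen first and then compared on the same arrays, so the p-values are not independent of that choice. Zn limitation exceeded P limitation by 1.23 ± 0.18 (2.34-fold, adjusted p = 0.00013) and S limitation by 1.28 ± 0.18 (2.43-fold, adjusted p = 8.9e-05). It exceeded N limitation by 0.91 ± 0.18 (1.88-fold, adjusted p = 0.0022), which was not called but was called with quantile normalization (1.04), with array weights (1.02) and without replicate 2 of Zn limitation (1.02). The Zn against P difference was 0.90 with quantile normalization and 0.77 with a common median, and the Zn against S difference 0.91 with a common median, none of which was called. P and S limitation could not be told apart for HAP4, with a difference of 0.05 (95% interval -0.32 to 0.43).

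The remaining activators had signals near the floor. CAT8 (YMR280C), the Snf1-dependent activator of gluconeogenic genes, gave 13.3, 15.2 and 15.1 under Zn and 12.3, 14.3 and 12.3 under N limitation and was at the floor on all P- and S-limited arrays, against 25.5, 18.0 and 14.7 under C limitation. Its 2 highest values were thus C-limited, and no comparison was called. It was at least 1.57-fold lower in both P and S limitation (adjusted p = 0.012 and 0.013), and with a floor of 6 these changes were -1.65 and -1.60 and called. That floor also called CAT8 higher in Zn than in P and S limitation (1.27 and 1.22) and higher in N than in P and S limitation (1.11 and 1.05). P and S limitation share a label set. SIP4 (YJL089W), which binds the same promoter elements as Cat8, gave 17.1, 29.3 and 18.4 under Zn limitation and at most 16.0 on the other wild-type arrays, with all 3 C-limited arrays at the floor. It was at least 1.75-fold higher in Zn than in C limitation (adjusted p = 0.0038) and was not called. With a floor of 6 SIP4 was called in Zn against C (1.01), Zn against N (1.01) and Zn against P limitation (1.47).

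ADR1 (YDR216W), the activator of genes for ethanol, glycerol and fatty acid use, gave 25.8, 17.5 and 29.2 under Zn limitation, 25.5, 24.3 and 39.9 under N limitation, 15.2, 12.0 and 12.0 under P limitation and 13.2, 17.2 and 20.0 under S limitation, against 30.6, 22.0 and 32.1 under C limitation. The P- and S-limited arrays lay below all C-limited arrays. ADR1 was at least 2.15-fold lower in P than in C limitation (log2 change -1.10 ± 0.25, adjusted p = 0.0046) and 1.68-fold lower in S limitation, which was not called (adjusted p = 0.038). N limitation was at least 2.24-fold above P limitation (adjusted p = 0.0028). With a floor of 25 both P calls ended, the P against C change was -0.998 and not called without replicate 3 of C limitation, and the N against P difference was not called without replicate 3 of N limitation (0.94), with a common median (0.92) or with quantile normalization (0.84). The Zn minus P difference of 0.86 was not called, and was 1.08 and called without replicate 2 of Zn limitation and 1.11 with a floor of 6.

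**Figure D2:**
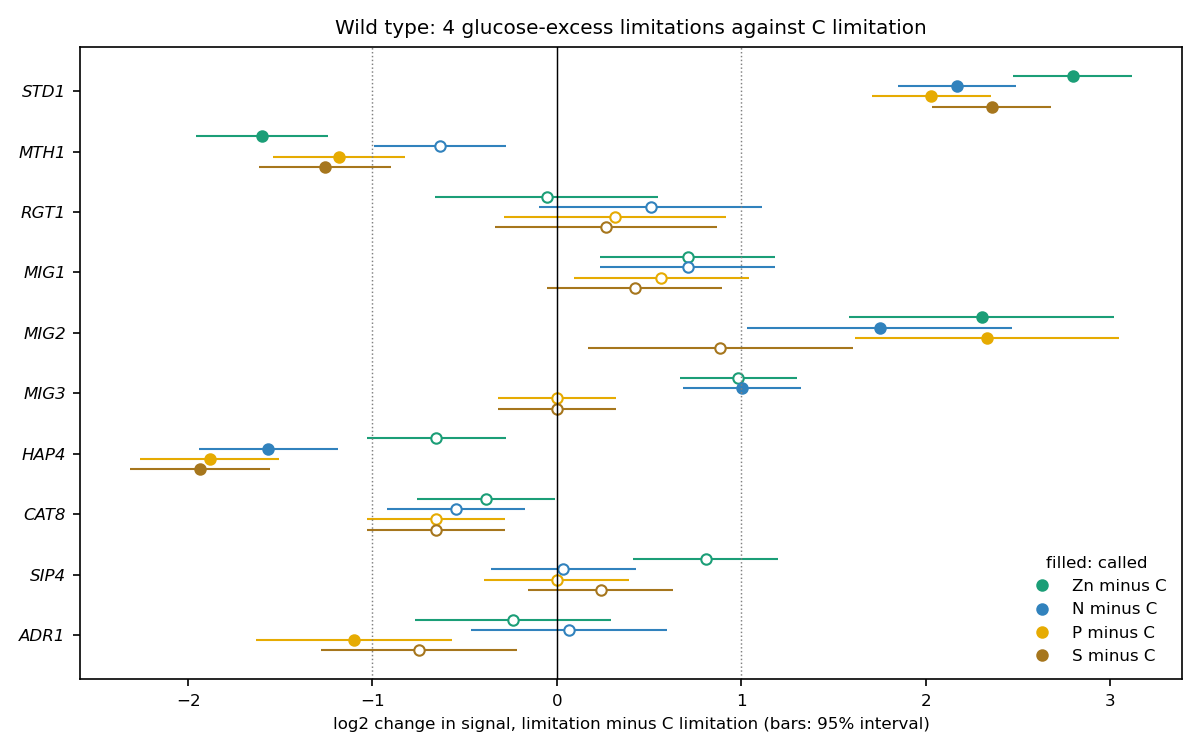
Log2 change in signal of each regulator in Zn, N, P and S limitation minus C limitation in wild type (horizontal axis), with bars for the 95% interval, filled points for called changes and dotted lines at the 2-fold threshold. STD1 lies at 2.03 to 2.80 in all 4 comparisons, MTH1 at -1.60 to -0.63 and HAP4 at -1.93 to -0.65, while the points of RGT1 and MIG1 lie inside the threshold and some of their intervals reach past it.

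Across the 4 glucose-excess limitations a moderated F test with a range of group means of at least 2-fold picked out 4 of 10 members, MIG2 (adjusted p = 0.0068), MIG3 (4.1e-05), HAP4 (0.00014) and ADR1 (0.0052), where 31.3% of all genes passed. STD1 and MTH1 had adjusted p of 0.0036 and 0.0021 but spanned 0.77 and 0.96 on the log2 scale. By pairs, Zn against N limitation called 0 of 10 members, with 8.17% of all genes, although 4 members (MTH1, HAP4, STD1 and SIP4) had an adjusted p under 0.05 in limma at less than 2-fold. Zn against P called HAP4, with 15.5% of all genes, and Zn against S called HAP4 and MIG2, with 16.0% of all genes. N against S called MIG3, with 11.4% of all genes, and N against P called MIG3 and ADR1, with 14.8% of all genes. These contrasts share arrays with each other.

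The genes these regulators act on were counted from lists written from general knowledge. The counts for each list stand beside the shares of all genes called, 14.9% in Zn, 10.7% in N, 12.1% in P and 11.2% in S against C limitation. Of 4 hexose transporter genes repressed by Rgt1 (HXT1, HXT2, HXT3 and HXT4), 3 were higher in Zn, N and S limitation than in C limitation and all 4 in P limitation, with median log2 changes of 4.07 in Zn, 2.78 in N, 3.12 in P and 2.49 in S limitation, beside medians over all genes of 0.05, 0.10, -0.16 and -0.06. HXT1, the low-affinity transporter of glucose-rich medium, gave 281, 275 and 367 under Zn, 53.8, 30.5 and 49.4 under N, 37.1, 89.7 and 110 under P and 23.4, 33.4 and 37.6 under S limitation, and all C-limited arrays were at the floor. It was at least 25.4-fold higher in Zn (adjusted p = 1.32e-07) and at least 2.57-fold higher in S limitation (adjusted p = 0.0085). HXT3 was 11.1-fold higher in Zn, 13.1-fold in N, 12.8-fold in P and 12.3-fold in S limitation. HXT4 was at least 71.0-fold higher in Zn, at least 77.9-fold in P and at least 42.4-fold in S limitation.

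HXT4 of the N-limited wild type rests on unequal arrays. Its signals were 784, 791 and 12.0, with replicate 3 at the floor, against 12.0, 13.5 and 12.0 under C limitation. It was called higher (log2 change 3.97 ± 1.08, adjusted p = 0.015), although the groups overlap through that 1 array.

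Of 7 tested genes that Mig1 represses, all 7 were lower in Zn than in C limitation, 6 in N, 4 in P and 6 in S limitation, with median log2 changes of -2.87, -1.46, -1.44 and -2.15 in that order. SUC2, the secreted invertase, gave 82.0, 82.0 and 101 under Zn, 159, 185 and 175 under N, 209, 145 and 184 under P and 87.3, 106 and 134 under S limitation, against 2366, 1829 and 2080 under C limitation. It was thus 23.7-fold, 12.0-fold, 11.7-fold and 19.4-fold lower, the lowest in Zn limitation. MAL11, a maltose transporter, was 28.2-fold lower in Zn, 7.46-fold in N, 29.6-fold in P and 16.0-fold in S limitation. REG2, a regulatory subunit of the Glc7 phosphatase, was at least 7.45-fold lower in Zn, 3.82-fold in N and 6.99-fold in S limitation, and in P limitation GAL4 was at least 2.96-fold lower.

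Of 16 genes activated by Hap4, 10 were lower in Zn, 7 in N, 11 in P and 8 in S limitation than in C limitation and none was higher, with median log2 changes of -1.38, -0.90, -1.21 and -1.04. COX5A, a subunit of cytochrome c oxidase, was 5.53-fold, 6.13-fold, 7.36-fold and 5.66-fold lower in the same order. CYC1, cytochrome c, was at the floor on all N-, P- and S-limited arrays, gave 144, 137 and 141 under Zn limitation and 272, 237 and 229 under C limitation, so that it was at least 20.5-fold lower in N, P and S limitation. Its Zn-limited arrays lay between the other glucose-excess groups and C limitation, as did those of HAP4. The list as a whole did not show this order, since its median change was the most negative in Zn limitation. Zn against N limitation called 1 of the 16 genes higher and 1 lower. SDH2 and SDH4, subunits of succinate dehydrogenase, were 3.61-fold and 3.74-fold lower in Zn limitation. COX4 was 3.64-fold lower in N and 3.70-fold in S limitation, and SDH3 4.32-fold lower in P limitation. The other subunits of the complex, with the haem-dependent activator HAP1 (4 genes: HAP1, HAP2, HAP3 and HAP5), had no called change in these 4 comparisons in limma, with 2 at an unadjusted p under 0.05 in Zn, 2 in N, 1 in P and 2 in S limitation. Their median log2 changes were -0.45, -0.39, -0.01 and -0.15.

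Of 10 genes under Cat8 and Sip4, 2 were lower in Zn, 2 in N, 4 in P and 3 in S limitation, and 1 was higher in N limitation, with median log2 changes of -0.30, -0.16, -0.68 and -0.34. Of all genes 14.9%, 10.7%, 12.1% and 11.2% were called in the same order, and the count in Zn limitation is near that share. PCK1, the first committed enzyme of gluconeogenesis, was 2.45-fold lower in N, 8.02-fold in P and 7.42-fold in S limitation than in C limitation. MLS1, malate synthase of the glyoxylate cycle, was the gene called higher. It gave 231, 168 and 254 under N limitation while all 3 C-limited arrays were at the floor, at least 17.9-fold higher (adjusted p = 1.16e-07). JEN1, a lactate permease, was at least 4.54-fold lower in N and at least 5.25-fold lower in P and S limitation. CAT2, carnitine acetyltransferase, was 3.61-fold lower in Zn, 3.85-fold in P and 2.86-fold in S limitation, and MDH2, cytosolic malate dehydrogenase, 2.47-fold lower in Zn limitation.

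Of 11 genes under Adr1, 4 were lower in Zn, 2 in N, 5 in P and 3 in S limitation and none was higher, with median log2 changes of -0.48, -0.55, -0.80 and -0.78. The shares of all genes called were 14.9%, 10.7%, 12.1% and 11.2%. FAA2, a fatty acid-activating enzyme of the peroxisome, was 2.84-fold, 2.85-fold, 3.35-fold and 3.30-fold lower in Zn, N, P and S limitation. POT1, the peroxisomal thiolase, was at least 4.26-fold lower in Zn, 2.69-fold in N and 2.90-fold in P limitation. ALD4, mitochondrial aldehyde dehydrogenase, was 2.20-fold lower in Zn, 4.53-fold in P and 2.29-fold in S limitation, and FOX2, of peroxisomal beta-oxidation, 2.06-fold lower in S limitation. ADH2, the ethanol-oxidising alcohol dehydrogenase and the best-known Adr1 target, gave 12.0 to 24.5 over the wild-type arrays.

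**Figure D3:**
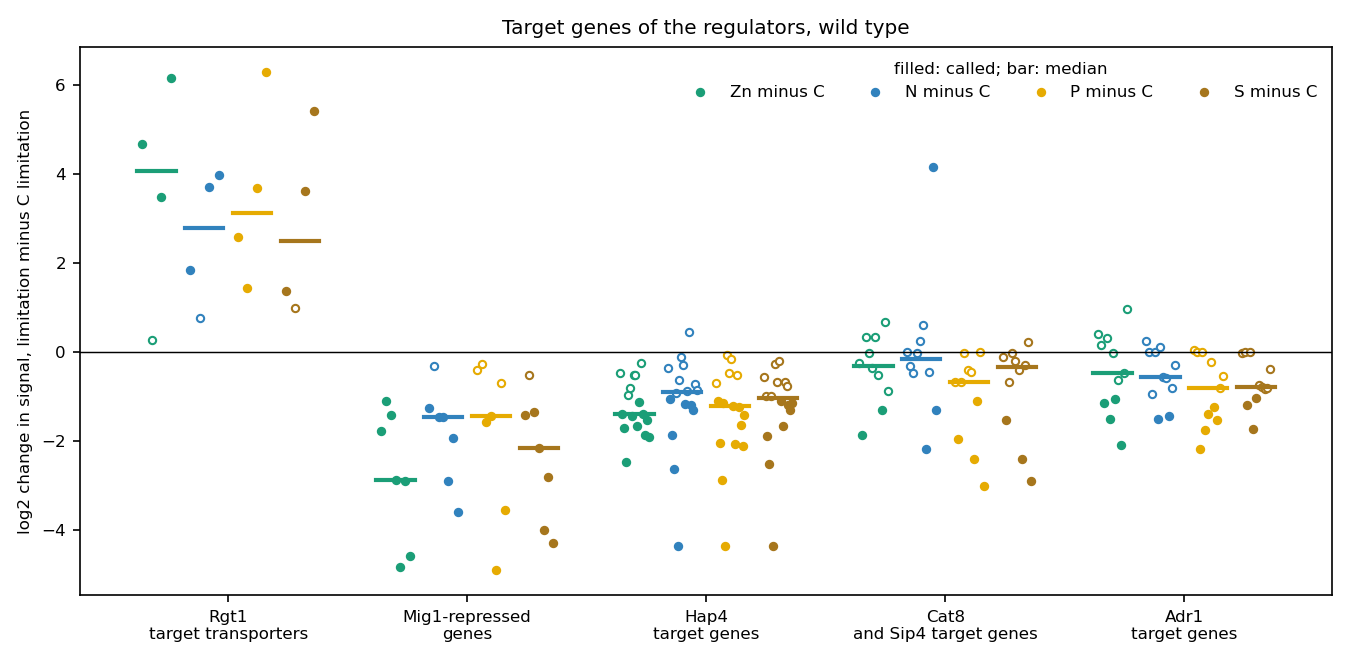
Log2 change in signal of each target gene in Zn, N, P and S limitation minus C limitation in wild type (vertical axis), by list, with filled points for called genes and bars at the medians. The median of the Rgt1 target transporters lies at 2.49 to 4.07 and that of the Mig1-repressed genes at -2.87 to -1.44, and the highest point of the Cat8 and Sip4 list is MLS1 in N limitation.

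The upstream signalling genes were counted in the same way, beside 14.9% of all genes called in Zn, 10.7% in N, 12.1% in P and 11.2% in S limitation. The counts of the Snf1 list are not above these shares. Of 11 genes of the Snf1 kinase and its phosphatase, TOS3, a kinase that activates Snf1, was higher in Zn than in C limitation (275, 258 and 364 against 76.6, 78.1 and 74.8, 3.86-fold) and GAL83, a Snf1 beta subunit, was higher in P limitation (2.07-fold), while N and S limitation called 0 of 11 in limma, with 7 and 3 at an unadjusted p under 0.05. Of 9 genes of glucose sensing and co-repression, 2 were higher and 1 lower in Zn, 2 were higher in N, 1 was higher and 1 lower in P and 1 was higher in S limitation. NRG1, a repressor of glucose-repressed genes, gave 515, 637 and 445 under Zn and 80.2, 117 and 81.5 under N limitation, against 23.1, 33.5 and 43.6 under C limitation. It was thus 16.3-fold higher in Zn and 2.83-fold higher in N limitation, with no overlap. Its relative NRG2 was 2.22-fold higher in Zn limitation. The sensor gene SNF3 was 2.33-fold lower in Zn and 2.44-fold lower in P limitation, GRR1, of the ubiquitin ligase that marks Mth1 and Std1, was 2.09-fold higher in N limitation, and the co-repressor gene TUP1 was 2.61-fold higher in P and 2.35-fold higher in S limitation.

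Genes whose pattern over the 15 wild-type arrays was most like that of each member called against C limitation were taken from 2344 genes whose group means span at least 2-fold. They are given as Pearson correlations of log2 signals over arrays that share groups and label sets. STD1 was most like WSC4 (0.978), GRE2 (0.971) and ARI1 (0.964), and MTH1 most like ISF1 (0.942), YMR206W (0.934) and MAL11 (0.928). MIG2 was most like TVS1 (0.913), REA1 (0.911) and TPO1 (0.900), and MIG3 most like HTL1 (0.990), ALD2 (0.966) and YNL234W (0.959). MIG3 was at the floor on every P-, S- and C-limited array, so its correlations mainly set the Zn- and N-limited arrays against a constant. MIG2 was at the floor on every C-limited array. HAP4 was most like CYC1 (0.953), YDL009C (0.947) and JEN1 (0.947), and ADR1 most like CTR86 (0.900), RAD1 (0.899) and YAP1 (0.885). Among the members themselves the highest correlations were MIG1 with MIG2 (0.779), HAP4 with CAT8 (0.775) and MIG2 with STD1 (0.744).

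The msn2 msn4 mutant was compared with wild type under C limitation to ask whether these regulators differ in a strain without Msn2 and Msn4. The strains belong to different label sets here and under N limitation, so strain and set cannot be told apart. In this comparison 0 of 10 members were called, with 4.03% of 5461 genes called with all 3 mutant arrays and 2.58% without replicate 1. CAT8 alone had an adjusted p under 0.05 (0.044, log2 change -0.55 ± 0.16, under 2-fold), with an adjusted p of 0.15 without replicate 1, and 4 members had an unadjusted p under 0.05. STD1 gave 126, 49.0 and 43.9 in the C-limited mutant, against 39.5, 38.1 and 35.2 in the C-limited wild type. MTH1 gave 90.0, 233 and 264 in the mutant, against 214, 235 and 284 in wild type, and HAP4 gave 30.0, 161 and 152 in the mutant, against 160.4, 198 and 168 in wild type. In all 3 genes the first mutant array stood away from the other two, which lay near the wild type. Without it the log2 changes were 0.30 ± 0.16 for STD1, 0.03 ± 0.19 for MTH1 and -0.16 ± 0.19 for HAP4, with 95% intervals of -0.02 to 0.63, -0.36 to 0.42 and -0.55 to 0.24. Leaving out another mutant array instead, which gives replicate 1 more weight, called STD1 higher without replicate 3 (1.07) and HAP4 lower without replicate 2 (-1.37).

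Replicate 1 of the C-limited mutant was therefore set beside the N-limited mutant. Whether it carries another culture's label, or comes from a culture that was not C-limited, was not tested, so the values with all arrays may not all be of C limitation. For MIG2, MTH1, STD1, RGT1 and HAP4 the N-limited and the other 2 C-limited mutant arrays did not overlap, and for each of them it was nearer to the N-limited group. For the other members these arrays overlapped. How many of all genes separate in this way was not counted, so whether the members are unusual in this is not shown. MIG2 gave 39.1 on it, 25.7 to 37.4 in the N-limited mutant and 12.0 on both other C-limited mutant arrays. RGT1 gave 125 on it, 131 to 215 in the N-limited mutant and 40.6 and 97.6 on the others.

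Under N limitation the mutant differed from wild type in 1 member of 10, with 7.84% of all genes called. MIG3 was at the floor of 12 on all 3 N-limited mutant arrays, against 27.5, 21.7 and 23.4 in the N-limited wild type, at least 2.00-fold lower (log2 change -1.00 ± 0.13, adjusted p = 6.3e-05). This call rests on the same 3 wild-type arrays as the MIG3 calls above, from another label set than the mutant, and ended with a floor of 25, a common median, quantile normalization and without replicate 1 of the wild type. STD1 gave 114, 106 and 99.6 in the mutant, against 177, 155 and 176 in wild type, with no overlap. Its log2 change of -0.67 ± 0.27 was 1.59-fold and not called (adjusted p = 0.087). In the fit without replicate 1 of the C-limited mutant its SE was 0.14 and its adjusted p 0.0031, still under 2-fold. MIG3 was again the only member called in that fit (adjusted p = 7.5e-05 in limma). RGT1 gave 153, 215 and 131 in the mutant, against 94.8, 133 and 89.7 in wild type, 1.56-fold with an adjusted p of 0.22.

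Within the mutant, N against C limitation asks whether the difference between glucose-excess and C-limited cultures is seen without Msn2 and Msn4, on arrays of 1 label set. With all arrays 0 of 10 members were called in limma, where 0.0549% of all genes were called and 2 members, STD1 and RGT1, had an unadjusted p under 0.05. Without replicate 1 of the C-limited mutant 5 of 10 were called, with 5.16% of all genes called. These are the same 5 members in which that array lay nearer to the N-limited group. Their calls, p-values and lack of overlap without it therefore depend on the choice to leave it out. STD1 was 2.29-fold higher (log2 change 1.20 ± 0.16, adjusted p = 8.8e-05), MIG2 at least 2.46-fold higher (1.30 ± 0.35, adjusted p = 0.030) and RGT1 2.58-fold higher (1.37 ± 0.37, adjusted p = 0.027). MTH1 was 2.10-fold lower (-1.07 ± 0.19, adjusted p = 0.0011) and HAP4 2.93-fold lower (-1.55 ± 0.19, adjusted p = 4.6e-05). STD1 then gave 114, 106 and 99.6 under N limitation against 49.0 and 43.9 under C limitation, and HAP4 45.9, 60.3 and 55.2 against 161 and 152, with no overlap. The call of RGT1, which was not called in wild type, rests on 131 to 215 under N limitation against 40.6 and 97.6 under C limitation.

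**Figure D4:**
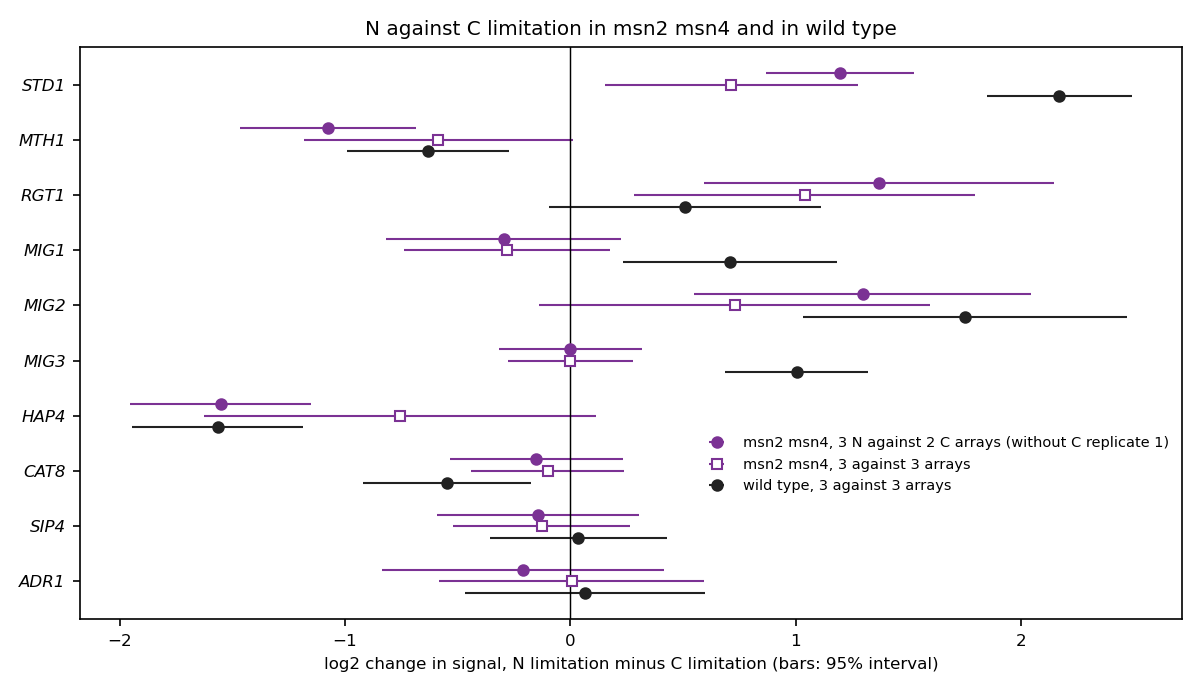
Log2 change in signal of each regulator in N minus C limitation (horizontal axis, bars for the 95% interval), in the msn2 msn4 mutant without replicate 1 of C limitation, in the mutant with all arrays, and in wild type. For HAP4 the mutant value is -1.55 without replicate 1 and -0.76 with all arrays, beside -1.57 in wild type.

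Whether the mutant effect differed between limitations was tested as the effect in N limitation less that in C limitation. With all arrays 1.50% of all genes were called and among the members MIG3 alone, at -1.00 ± 0.19 (adjusted p = 0.0082), and without replicate 1 2.47% of all genes and again MIG3, with an adjusted p of 0.015. MIG3 was at the floor on all arrays of the other 3 groups, so its value restates the N-limited wild type against the floor. The call ended under the same settings as above: a floor of 25 (-0.05), a common median (-0.81), quantile normalization (-0.75) and leaving out replicate 1 of the N-limited wild type (-0.91). For STD1 the difference was -1.46 ± 0.38 with all arrays (adjusted p = 0.061) and -0.97 ± 0.21 without replicate 1 (adjusted p = 0.022), just under 2-fold, while it was called without replicate 2 (-1.66) and without replicate 3 (-1.74) of the C-limited mutant. The N minus C difference of STD1 was thus 1.20 ± 0.16 in the mutant without that array and 2.17 ± 0.15 in wild type. For HAP4 the difference of effects was 0.81 with all arrays and 0.01 without replicate 1, with 95% intervals of -0.42 to 2.04 and -0.52 to 0.55. For RGT1 it was 0.53 with all arrays and 0.86 without replicate 1, with intervals of -0.54 to 1.60 and -0.18 to 1.90, so the call of RGT1 in the mutant is not shown to differ from wild type.

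The target lists in the mutant followed the same split by array. With all arrays N against C limitation called 0 genes of these lists in limma, with 2 of 4 Rgt1 target transporters, 5 of 8 Mig1-repressed genes and 11 of 16 Hap4 targets at an unadjusted p under 0.05, and without replicate 1 it called 4 of 4 Rgt1 target transporters higher, 5 of 8 Mig1-repressed genes lower and 10 of 16 Hap4 targets lower. The median log2 changes were 1.79, -1.27 and -1.28, beside -0.07 over all genes. Of all genes 0.0549% were called with all arrays and 5.16% without replicate 1. HXT3 was 4.85-fold higher, and SUC2, at 199.8, 310 and 98.01 under N limitation against 1364 and 1249 under C limitation, was 7.16-fold lower. CYC1 was 6.88-fold lower, with 35.5, 25.3 and 38.1 under N limitation against 184 and 271 under C limitation. MLS1 was at least 7.62-fold higher, and HAP3, a DNA-binding subunit of the Hap complex, 2.37-fold lower.

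Against wild type under C limitation, MAL11 and EMI2 were the Mig1-repressed genes called lower in the mutant. Their list had a median log2 change of -1.13 with all arrays and -0.37 without replicate 1. MAL11 gave 36.7, 47.5 and 47.4 in the C-limited mutant, against 703, 1031 and 918 in wild type, 20.0-fold lower with all arrays and 18.4-fold lower without replicate 1. EMI2, a hexokinase relative, was 4.03-fold lower with all arrays and 3.04-fold lower without it. Under N limitation MAL11 was 3.10-fold, EMI2 3.07-fold and HXK1, a hexokinase gene, 3.62-fold lower in the mutant. For MAL11 the mutant effect differed between the limitations by 2.69 with all arrays (adjusted p = 3.52e-05) and by 2.57 without replicate 1. SUC2 gave 146, 1364 and 1249 in the C-limited mutant, against 2366, 1829 and 2080 in wild type, and was not called. CYC1 was at least 2.71-fold higher in the N-limited mutant than in wild type, where it was at the floor, and the difference of its effects between limitations was 2.48 and not called with all arrays (adjusted p = 0.064) and 1.57 and called without replicate 1 (adjusted p = 0.0023). HXT3 was 2.71-fold, NRG2 2.13-fold, QCR8 at least 2.35-fold and SDH3 2.05-fold lower in the N-limited mutant. Under C limitation PCK1 was 2.53-fold lower in the mutant with all arrays and 2.28-fold lower without replicate 1, and TUP1 was 2.43-fold higher and SDH3 2.13-fold lower with all arrays. Neither was called without replicate 1, where they were 2.14-fold and 1.61-fold (adjusted p = 0.15 and 0.087 in limma).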

How the data were processed

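The values are signal intensities as deposited by the authors, 1 per probe set and array. Per the labels, arrays of P and S limitation and of the mutant were quantified with GCOS 1.2 and values under 12 were set to 12, yet lower values are found in the table. The genome build is not given in the sources used here. Arrays were scaled to a common 2% trimmed mean, floored at 12 and log2-transformed. Of 9335 probe sets 6504 match a single gene; the brightest per gene gave 5656 genes, and genes at the floor throughout were not tested. Gene names follow RefSeq R64. limma 3.58.1 in R 4.3.3 fitted group means with eBayes, over the 15 wild-type arrays for limitations and over all 21 for the mutant, with Benjamini-Hochberg adjustment over all genes tested. A called gene had an adjusted p under 0.05 and at least 2-fold. Folds are ratios of geometric means and a fold against arrays at the floor is a lower bound. The number of arrays limits precision. Fits were tested on simulated data. The members and lists were chosen with earlier results of these data known, and the contrasts between pairs of glucose-excess limitations other than P against S, and 1 alternative fit, were added after values were seen. Every member is named in the text, with up to 3 called genes of largest change per list and comparison, and ADH2 and SUC2 in the mutant as exceptions chosen after their values were seen. Alternatives changed the scaling, floor, filter, probe set rule, fit and arrays.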

Additional observations from a re-analysis of the deposited data

Results flagged for a closer look

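MIG3 was the member called in the test of whether the mutant effect differed between limitations. The effect in N limitation less that in C limitation was -1.00 on the log2 scale (adjusted p = 0.0082 in limma). MIG3 was at the floor on every array of both C-limited groups and of the N-limited mutant, so the effect in C limitation is fixed at the floor and the value restates the 3 N-limited wild-type arrays against it. The call ended in 4 of 23 alternatives, with a floor of 25, a common median, quantile normalization and without replicate 1 of the N-limited wild type.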

How the results depend on the processing

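Counts of called members in 166 of the repeats stayed within 1.5 times the reported count and 28 did not. With values as deposited, unscaled, 3 members were called in C-limited mutant against wild type (reported 0), 6 in N-limited mutant against wild type (reported 1), 2 in the difference of mutant effects (reported 1), 5 in S against C (reported 3), 5 in Zn against C (reported 3) and 10 over the 4 glucose-excess limitations (reported 4). This setting also turned MIG2 in Zn against P to 1.46, MTH1 in Zn against P and S to 1.07 and 1.15, and RGT1 in Zn against P and S to 1.12 and 1.17, none called as reported. The median of all genes with values as deposited lay between -0.99 in N-limited mutant against wild type and 0.86 in Zn against C. With a common median, N-limited mutant against wild type and the difference of mutant effects called 0 members and the 4 glucose-excess limitations 1. Quantile normalization gave 0 and 0 for the same mutant comparisons. A floor of 25 gave 2 in N against C, 2 over the glucose-excess limitations, and 0 in N-limited mutant against wild type and in the difference of effects. A floor of 6 gave 5 in S against C and 5 in Zn against C. Array weights gave 4 in N against C within the mutant and 2 in the difference of effects. Leaving out 1 array at a time gave 0 to 1 in C-limited and 0 to 1 in N-limited mutant against wild type, 0 to 5 in N against C within the mutant (5 without replicate 1 of C limitation), 0 to 2 in the difference of effects, 0 to 1 in P against S, 3 to 4 in N against C, 4 to 5 in P against C, 3 in S against C, 3 to 4 in Zn against C and 3 to 5 over the glucose-excess limitations. The cause of these shifts was not tested.

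A common median moved the split of all called genes from 369 higher and 215 lower to 187 and 415 in N against C, from 500 and 314 to 354 and 543 in Zn against C, from 223 and 434 to 341 and 284 in P against C, from 265 and 348 to 342 and 283 in S against C, and from 128 and 300 to 273 and 134 in N-limited mutant against wild type, with medians of all genes of -0.13, -0.16, 0.00, 0.03 and 0.08. With quantile normalization the splits were 248 and 300 in N against C, 400 and 439 in Zn against C, 274 and 307 in P against C and 206 and 183 in N-limited mutant against wild type. The difference of mutant effects had 26 higher and 56 lower genes as reported, 52 and 25 with a common median and 57 and 49 with quantile normalization. Values as deposited gave 703 and 156 in N against C, 2283 and 64 in Zn against C, 66 and 2051 in P against C, 86 and 1652 in S against C, 15 and 2769 in N-limited and 17 and 1293 in C-limited mutant against wild type (reported 112 and 108), 18 and 111 in the difference of effects, and 4991 genes over the glucose-excess limitations (reported 1708). Array weights called 247 genes in N against C within the mutant (reported 3), 373 in C-limited mutant against wild type (reported 220) and 477 in the difference of effects (reported 82). A fit of only the groups compared called 50 and 0 genes in the C-limited mutant against wild type and in N against C within the mutant. Deviations of same-numbered arrays from their group means had correlations of -0.26 to 0.21. In S against C limitation all 3 were positive (0.17, 0.19 and 0.08), and each was highest for its own number. Such correlations cannot settle whether the numbers pair the cultures, and the reported fits do not pair them. A replicate block called 4 members in N against C, 3 in Zn against C, 5 in P against C, 3 in S against C, 1 in P against S, 0 and 1 in the C- and N-limited mutant against wild type and 0 in N against C within the mutant, the same counts as without it. Signals near the floor limit MIG3, CAT8, SIP4 and ADR1 most, and also MIG2 in comparisons with C limitation, where all its wild-type arrays were at the floor.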
